A study of Mus musculus with 20 samples.

Results

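Malignant and benign tumours of chemically treated mouse skin were compared: 5 cutaneous squamous cell carcinomas (cSCC) against 5 papillomas, which make up 10 of the 20 small RNA libraries of the series. The members were chosen by label alone, as the 5 libraries labelled cSCC (numbered 1, 2, 3, 4 and 6) and the 5 labelled papilloma (numbered 1, 3, 4, 5 and 6), and all 2127 small RNA features of the deposited table were included. All animals were of the inbred FVB/N strain, and both tumour groups had been treated with DMBA, a mutagen that starts skin tumours, and PMA, a phorbol ester that promotes them, so the treatment is shared by both sides of the comparison. The remaining groups, of 5 libraries each, were skin of acetone-treated healthy mice and DMBA/PMA-treated hyperplastic skin, which is thickened but carries no tumour. The sources used here give no doses, ages or time from treatment to biopsy. The samples are labelled biopsies, with no word on whether 1 mouse gave more than 1 of them, so a p-value here reflects only how much these samples vary, which may in part be technical.

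Mature microRNAs (miRNAs) are short RNAs cut from a hairpin precursor, one from its 5p and one from its 3p arm. They pair with messenger RNAs mainly through the seed, bases 2 to 8 from the 5′ end, and lower the output of those messages, so that miRNAs with the same seed can act on the same messages. In skin, miR-203 and miR-205 are the best known miRNAs of the stratified epithelium: miR-203 restrains the stem cell factor p63 as keratinocytes differentiate. A papilloma is a benign outgrowth of the epidermis and a cSCC an invasive tumour of the same cell lineage, and in this model a cSCC can arise from a papilloma.

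The sequences of some miRNAs that rose in cSCC are shown first, with the seed in capitals (RefSeq, GRCm38.p6, 5′ to 3′). For miR-135b-5p, miR-34c-5p and miR-147-3p, among others, no RefSeq sequence was matched, so theirs are not shown. Those shown include 2 pairs with a shared seed.
miR-31-5p: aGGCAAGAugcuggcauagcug
miR-221-3p: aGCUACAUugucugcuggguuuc
miR-222-3p: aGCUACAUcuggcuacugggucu
miR-34b-3p: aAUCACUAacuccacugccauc
miR-34c-3p: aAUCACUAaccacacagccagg
miR-351-5p: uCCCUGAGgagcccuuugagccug
miR-503-5p: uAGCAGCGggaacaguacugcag
miR-210-3p: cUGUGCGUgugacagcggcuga

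Some that fell follow in the same form. Here the pair miR-204-5p and miR-211-5p differed at 1 of 22 bases, and miR-181c-5p and miR-181d-5p share a seed.
miR-203-3p: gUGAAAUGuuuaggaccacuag
miR-193b-3p: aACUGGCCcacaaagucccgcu
miR-204-5p: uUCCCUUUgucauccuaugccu
miR-211-5p: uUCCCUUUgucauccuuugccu
miR-181c-5p: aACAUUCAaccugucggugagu
miR-181d-5p: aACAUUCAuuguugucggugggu
miR-99a-5p: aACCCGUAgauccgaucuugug

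The total count per library was 1270588 to 3797597 in papilloma and 2028162 to 3915431 in cSCC, of which 1060615 to 2370313 and 1614803 to 2903657 were mature miRNA counts. On a principal component analysis of the 10 libraries the first component (27.1% of the variance) spread the papillomas from -26.51 to 21.33 around the cSCC libraries (0.27 to 14.05), and the second (21.3%) separated the groups (papilloma 0.36 to 22.25, cSCC -28.03 to -3.40). Papilloma 6, the shallowest library, lay at the far end of the first component from papilloma 1 and papilloma 3. The share of counts in nuclear tRNA entries was 34.3%, 33.7%, 28.3%, 19.6% and 13.6% in papilloma 1, 3, 4, 5 and 6, against 17.8% to 23.4% in cSCC.

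Of 1522 features with enough counts, 49 were higher in cSCC (3.22%) and 26 lower (1.71%), together 4.93% (edgeR quasi-likelihood F test on counts, Benjamini-Hochberg adjusted p under 0.05). Mature miRNAs made up 45 of the rises and 18 of the falls (864 tested). Of the 21 mitochondrial tRNAs 4 fell, of 352 nuclear tRNA entries 3 fell, of 226 snoRNAs 3 rose and 1 fell, and of 19 piRNAs 1 rose. A test of the 506 features with a mean of at least 50 CPM gave another balance, 35 higher and 39 lower, where 47.3% of calls were rises against 65.3% in the fit of all features. Without papilloma 6 there were 67 rises and 56 falls, and without cSCC 4 there were 31 and 10. The number of falls was 12 without papilloma 3, 13 without cSCC 1 and 16 without papilloma 1, cSCC 2 or cSCC 3. Each fit without a library was filtered and scaled again. The libraries of the groups did not overlap for 25 features with cSCC above (1.64%) and 35 with cSCC below (2.3%).

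**Figure D1:**
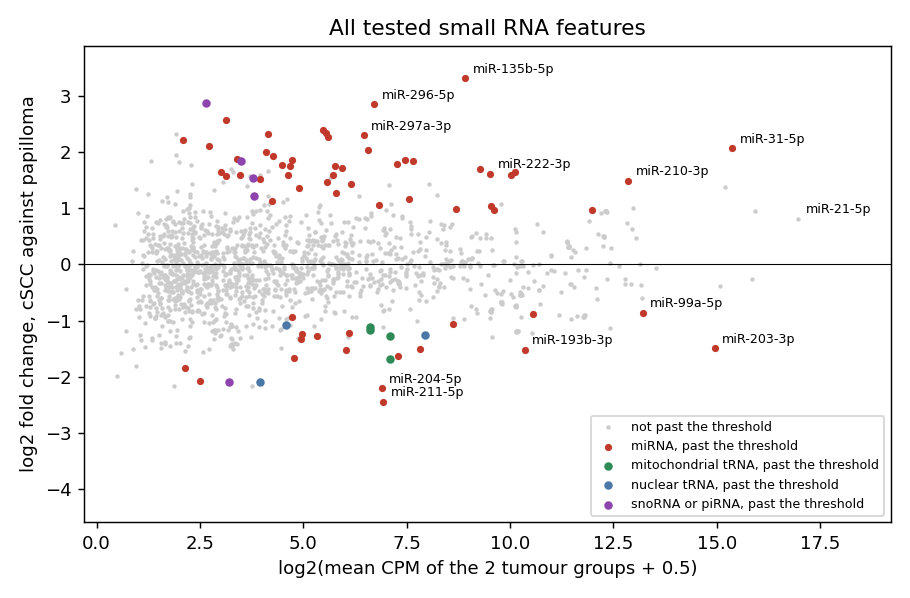
Log2 fold change of cSCC against papilloma (vertical axis) by mean level in the tumours (horizontal axis, log2 of CPM) for all 1522 tested features, with the 75 features past the threshold coloured by class. miR-135b-5p lies highest at 3.33, and miR-211-5p (-2.45) and miR-204-5p (-2.21) lie lowest among the abundant features.

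Among miRNAs that general knowledge holds to be raised in squamous carcinomas, 8 of 22 tested rose (36.4%, against 3.22% of all features) and 0 fell. The median log2 fold change was 0.92, against -0.07 over all features. This list was drawn up with earlier results of these data known, so its count is not independent of them. The 8 were both arms of miR-135b, both arms of miR-210, miR-31-5p, miR-221-3p, miR-222-3p and miR-503-5p. Levels are given as CPM, the count scaled to the library size times its trimmed-mean (TMM) factor, and single libraries in the order papilloma 1, 3, 4, 5 and 6, then cSCC 1, 2, 3, 4 and 6. Without cSCC 4 the list had 3 rises, and in each other fit without 1 library 7 or 8.

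The largest rise was in miR-135b-5p (chr1:134094679-134094703, mm9), a miRNA known to restrain the Wnt pathway inhibitor APC. It stood at 23.8, 12.3, 163, 117 and 123 CPM in the papillomas and at 1043, 598, 308, 2131 and 302 CPM in the cSCCs. Each cSCC lay above each papilloma, and papillomas 1 and 3 stood near the level of healthy skin (mean 14.9 CPM) and hyperplastic skin (11.1 CPM). The rise from 87.7 ± 66.2 to 876 ± 763 CPM (5 libraries each, ± SD) was a log2 fold change of 3.33 ± 0.585 SE (edgeR, adjusted p = 0.00125), and it was called in all 10 fits without 1 library (2.81 to 3.79). Its other arm, miR-135b-3p, rose by 2.21 at 1.33 CPM in papilloma and 6.11 CPM in cSCC (edgeR, adjusted p = 0.0274). That call ended without cSCC 2, cSCC 4, papilloma 1 or papilloma 3 (adjusted p = 0.0568 to 0.0941).

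miR-31-5p, abundant in wounded and hyperproliferative epidermis, had 27980, 11400, 22310, 6210 and 13610 CPM in the papillomas. In the cSCCs it had 91330, 49230, 64580, 106400 and 32790 CPM, each above every papilloma. Its log2 fold change was 2.08 ± 0.519 (edgeR, adjusted p = 0.0175), and 1.91 without cSCC 4 (adjusted p = 0.0561). Its partner arm miR-31-3p did not pass, at 5360 ± 1800 and 10740 ± 3120 CPM (log2 fold change 1.0, adjusted p = 0.179). The log2 ratio of the 5p to the 3p counts of miR-31 was 1.78, 1.84, 2.13, 0.35 and 1.31 in the papillomas and 3.03, 2.14, 2.93, 2.78 and 2.14 in the cSCCs. The means differed by 1.12 (exact permutation test, two-sided, p = 0.00794, the smallest that 5 against 5 allows; 0.114 after adjustment over 43 miRNAs). Of those 43 miRNAs with both arms at 50 CPM or more, 0 passed the adjusted threshold (0.0%) and 11 had an unadjusted p under 0.05. The miR-142 ratio moved by 1.01 and that of miR-15b by -0.84 at the same p, and these 3 were picked after their values were seen.

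miR-21-5p, a repressor of the tumour suppressor gene Pdcd4, did not pass although its groups did not overlap. It stood at 90600, 92340, 82860, 108100 and 92960 CPM in the papillomas and 154800, 154400, 181400, 199600 and 131000 CPM in the cSCCs (log2 fold change 0.815 ± 0.333 SE, edgeR, adjusted p = 0.152). In a fit of the 10 tumour libraries alone miR-21-5p passed at 0.857 (adjusted p = 0.0177). miR-29a-3p, of a family that restrains collagens, lay just outside the threshold at 42280 ± 5530 and 81510 ± 22500 CPM (0.947 ± 0.284, adjusted p = 0.0503). It passed with DESeq2 size factors (0.966, adjusted p = 0.0471).

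miR-221-3p and miR-222-3p, which restrain the cell cycle inhibitor p27 and lie within 1 kb of each other on the X chromosome (chrX:18723432-18724087), both rose. miR-221-3p had 538, 209, 638, 690 and 620 CPM in the papillomas and 1452, 1803, 1025, 3294 and 864 CPM in the cSCCs. miR-222-3p had 289, 299, 381, 347 and 490 CPM, then 1077, 1471, 562, 1753 and 681 CPM. Each cSCC lay above each papilloma for both, and cSCC 4 was highest for both. The log2 fold changes were 1.65 ± 0.370 and 1.62 ± 0.332 (edgeR, adjusted p = 0.00769 and 0.00406). Without cSCC 4 the value of miR-221-3p was 1.33 (adjusted p = 0.0525), and the call for miR-222-3p held in all 10 fits without 1 library.

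From the X-linked group that holds miR-351, miR-503, miR-322, miR-542 and miR-450 (chrX:50401184-50407505), 2 of 10 tested members rose and 0 fell. Of all features 3.22% rose. miR-351-5p, which has the seed of the miR-125 family, stood at 26.0, 22.9, 33.4, 26.4 and 33.9 CPM in the papillomas and at 68.3, 63.4, 143, 71.5 and 121 CPM in the cSCCs, a gap with no overlap (log2 fold change 1.72 ± 0.278, edgeR, adjusted p = 0.00113). It was at 26.5 CPM in healthy and 27.03 CPM in hyperplastic skin, about the papilloma level. The seed relatives miR-125a-5p and miR-125b-5p did not pass. miR-503-5p, known to restrain cyclin D1, rose from 25.03 ± 14.7 to 83.6 ± 33.4 CPM (1.76 ± 0.346, adjusted p = 0.00335), with papilloma 6 at 50.8 CPM above cSCC 4 at 42.4 CPM. The neighbour miR-322-5p had 240 CPM in papilloma and 398 CPM in cSCC (0.73, adjusted p = 0.228). miR-351-5p is on no list and, with miR-322-5p, was named after its value was seen.

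The miR-34 family, targets of the tumour suppressor p53, was listed together with the related miR-449 entries. Of this list 4 of 9 tested members rose (44.4%, against 3.22% of all features) and 0 fell. All 4 come from the miR-34b and miR-34c hairpins of one locus (chr9:50911148-50911738). miR-34c-5p had 82.2, 75.3, 72.7, 85.4 and 62.3 CPM in the papillomas and 105, 213, 430, 450 and 186 CPM in the cSCCs. The papillomas lay close together and below every cSCC (log2 fold change 1.87 ± 0.337, edgeR, adjusted p = 0.00143). miR-34c-3p rose by 1.75 (adjusted p = 0.00406), miR-34b-3p by 1.44 (0.0274) and miR-34b-5p by 1.59 (0.0478). miR-34a-5p, from a separate gene on chromosome 4, stood at 2714 CPM in papilloma and 2455 CPM in cSCC (-0.14, adjusted p = 0.812). Without cSCC 4 the list had 2 rises, and miR-34b-3p had 1.28 (adjusted p = 0.0903). The call for miR-34b-5p also ended without cSCC 3, papilloma 1 or papilloma 6 (adjusted p = 0.067 to 0.136, cSCC 4 included) and, narrowly, with no low-count filter (0.0502) and in the fit of the 10 tumour libraries (0.0587). Neither miR-34a-5p nor miR-34b-5p met the rule for named features; both were picked with their values in view.

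Both arms of miR-210, a direct target of the hypoxia factor HIF-1, rose. miR-210-3p had 4654, 3435, 4385, 5030 and 1919 CPM in the papillomas and 7864, 12680, 8026, 21940 and 4225 CPM in the cSCCs, where cSCC 6 lay inside the papilloma range and cSCC 4 far above the rest. The log2 fold changes were 1.49 ± 0.381 for miR-210-3p and 1.70 ± 0.419 for miR-210-5p (edgeR, adjusted p = 0.0194 and 0.016). Without cSCC 4 neither arm passed, miR-210-3p at 1.12 (adjusted p = 0.138) and miR-210-5p at 1.41 (0.0677). cSCC 4 was also the highest library for miR-135b-5p, miR-31-5p, miR-221-3p, miR-222-3p and miR-34c-5p.

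miR-296-5p, from the imprinted Gnas region, showed the strongest dependence on cSCC 4. It had 24.4, 13.1, 10.2, 39.2 and 40.5 CPM in the papillomas and 35.7, 13.2, 38.9, 737 and 95.1 CPM in the cSCCs. Its log2 fold change of 2.86 ± 0.766 (edgeR, adjusted p = 0.0274) became 0.92 without cSCC 4 (adjusted p = 0.411). Its call also ended without papilloma 3 (2.91, adjusted p = 0.0506) and in the fit of the 10 tumour libraries (2.91, 0.0777).

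**Figure D2:**
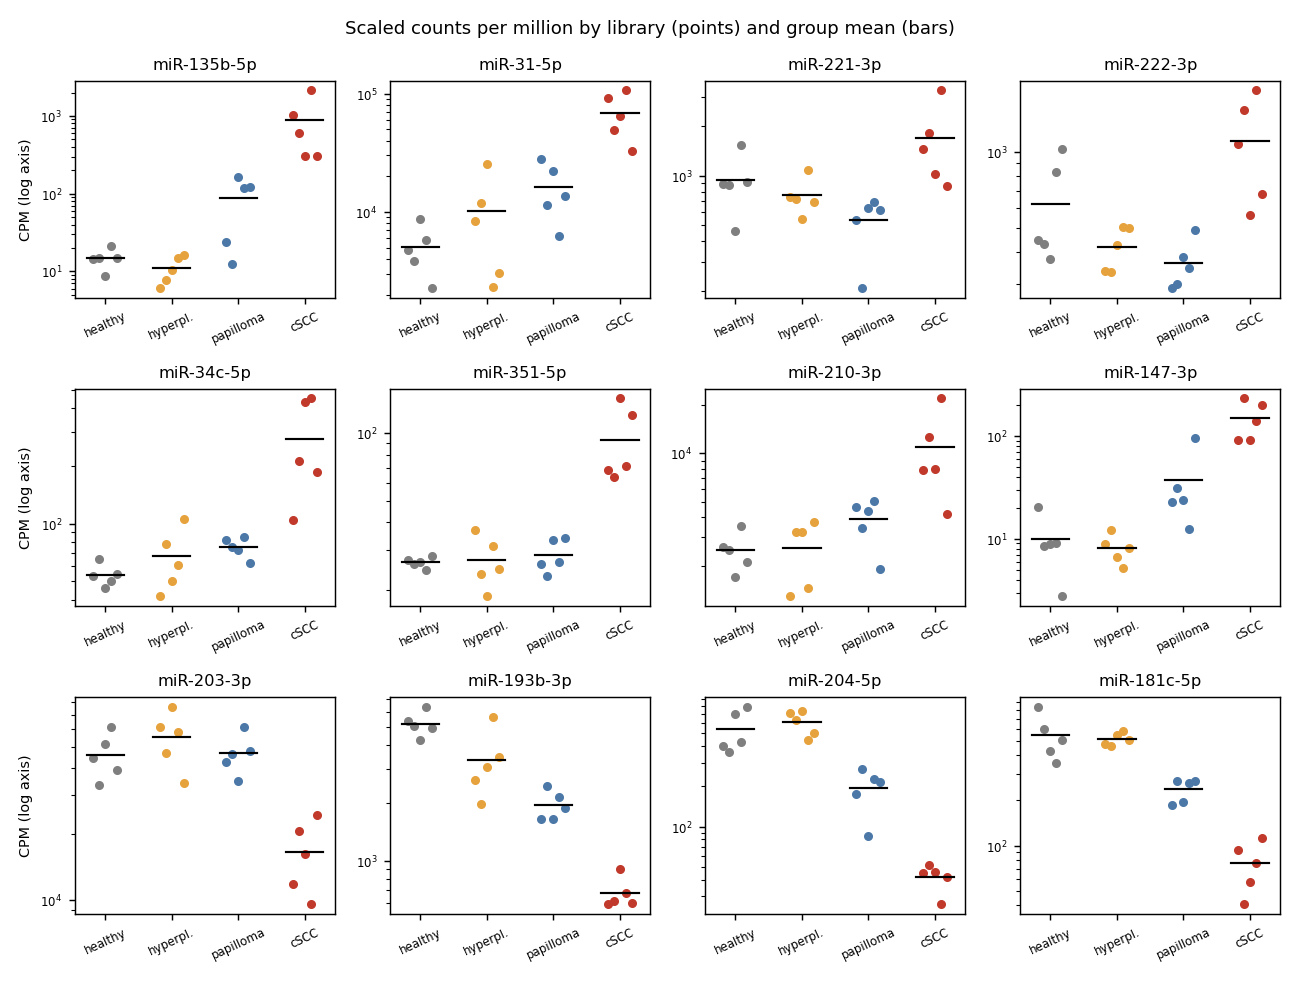
CPM on a log axis in each library (points) with the group mean (bars), for 12 miRNAs in healthy skin, hyperplastic skin, papilloma and cSCC, 5 libraries each. For miR-135b-5p, miR-31-5p, miR-221-3p, miR-222-3p, miR-34c-5p and miR-351-5p every cSCC lies above every papilloma, and for miR-203-3p, miR-193b-3p, miR-204-5p and miR-181c-5p every cSCC lies below.

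The families of miR-297, miR-466 and miR-467, together with miR-669, come from a large repeated cluster in an intron of Sfmbt2, an imprinted Polycomb gene best known from the placenta. Of 64 tested entries of these families 19 rose (29.7%, against 3.22% of all features) and 0 fell, with a median log2 fold change of 0.64. All 19 lie among the 54 tested entries of one stretch (chr2:10388339-10439868). The 19 were called higher in these same libraries, so their higher level in cSCC and their contrast with uncalled entries follow from that choice. Summed over these 19, the papillomas had 173, 301, 391, 344 and 508 CPM and the cSCCs 1803, 1495, 324, 1955 and 835 CPM. cSCC 3 thus lay within the papilloma range, and each other cSCC lay above it. cSCC 3 was at or below the highest papilloma in 19 of the 19, while the other 4 cSCCs were all above it in 17. The remaining 35 entries of the stretch summed to 308, 514, 806, 763 and 1063 CPM in the papillomas and to 928, 979, 473, 928 and 788 CPM in the cSCCs, so that papilloma 6 exceeded every cSCC. Over all 78 listed entries of the families, called or not, the sums overlapped, at 812 to 2434 CPM in papilloma and 1245 to 3237 CPM in cSCC.

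Within the cluster, miR-297a-3p rose from 29.6 ± 14.2 to 145 ± 83.3 CPM (log2 fold change 2.31 ± 0.394, edgeR, adjusted p = 0.00125). miR-297b-3p rose by 2.41 ± 0.426 (adjusted p = 0.00125), miR-669a-5p by 2.34, miR-669m-5p by 2.27, miR-669a-3p by 1.84 and miR-467a-3p by 1.79. miR-669p-5p (2.58) and miR-669f-5p (2.33) rose at lower levels, 14.0 and 28.5 CPM in cSCC. These 8 were called in all 10 fits without 1 library. With the replicate number as a block, however, 0 of 59 tested entries of these families rose. In the test against a log2 fold change of 1, 0 of 64 rose. Without cSCC 3 the stretch and its relatives had 27 rises of 68 tested, and without cSCC 4 there were 14. In mice many of these miRNAs are near-identical copies, so reads may have been shared between entries and the 19 are not 19 independent measurements. With healthy skin at 33.1 CPM and hyperplastic skin at 26.5 CPM for miR-297a-3p, the papilloma level was close to that of skin without a tumour.

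**Figure D3:**
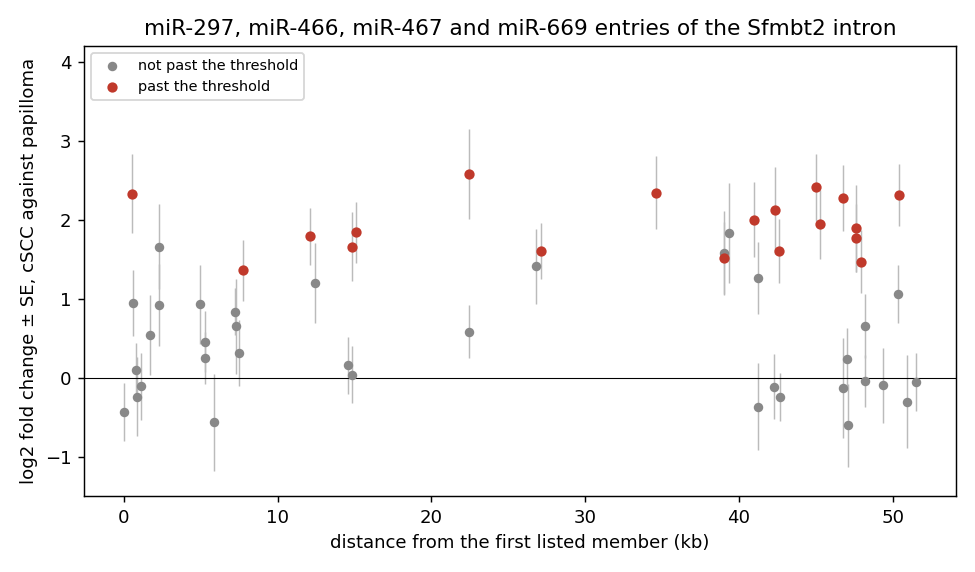
Log2 fold change of cSCC against papilloma with its standard error (vertical axis) for the 54 tested entries of the cluster, by distance from the first in kb (horizontal axis), with the 19 past the threshold in red. Red points from 1.36 to 2.58 are spread along the whole stretch, and grey entries reach from -0.60 to 1.83, so that called and uncalled entries overlap in size.

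Markers of leukocytes moved in both directions. miR-147-3p, induced by Toll-like receptor signals in macrophages, had 22.7, 31.1, 23.6, 12.5 and 94.9 CPM in the papillomas and 90.6, 231, 90.9, 138 and 201 CPM in the cSCCs (log2 fold change 2.05 ± 0.470, edgeR, adjusted p = 0.0088). Papilloma 6 alone reached the cSCC range, and without it the value was 2.83. miR-142-5p, of all blood lineages, rose from 519 ± 276 to 1564 ± 786 CPM (1.59 ± 0.392, adjusted p = 0.016). miR-223-3p, the main miRNA of neutrophils, had 6610, 11150, 12250, 13170 and 61570 CPM in the papillomas and 33710, 61830, 53930, 33030 and 89670 CPM in the cSCCs. With papilloma 6 it missed the threshold (1.38 ± 0.445, adjusted p = 0.0667), and without papilloma 6 it passed at 2.38 (0.000312), as it did in a fit of mature miRNAs alone (1.53, 0.00599). By contrast miR-511-3p, from an intron of the macrophage mannose receptor gene Mrc1, fell from 96.5 ± 56.0 to 33.4 ± 14.1 CPM (-1.53 ± 0.433, adjusted p = 0.0371). That call ended without cSCC 1, cSCC 2, cSCC 3, cSCC 4, papilloma 3, papilloma 4 or papilloma 5 (adjusted p = 0.0514 to 0.173). The partner arms miR-147-5p (log2 fold change 0.746), miR-142-3p (0.625) and miR-511-5p (-0.184) moved less and did not pass.

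In total 2 of 8 myeloid members rose and 1 fell, where 3.22% of all features rose and 1.71% fell. The summed level of the 8 was 7066 to 63100 CPM in papilloma and 34970 to 93280 CPM in cSCC. Of 8 tested lymphoid and inflammation members 0 passed (2526 to 4910 against 1979 to 3962 CPM), among them miR-155-5p at 25.01 and 21.97 CPM, and miR-155-3p had 0 counts in at least 1 library. No member passed either among 2 of endothelium (6752 to 10580 against 7058 to 14020 CPM), 10 of fibroblast and mesenchyme (19220 to 29590 against 12510 to 30030), 4 of smooth muscle (13770 to 17320 against 11150 to 20980), 10 of striated muscle (1872 to 6604 against 1471 to 2776), 5 erythroid (1834 to 7047 against 2501 to 5879) and 15 neural and glial (199 to 438 against 209 to 504). In a biopsy, a change in the number of cells of a type and a change in RNA per cell cannot be told apart, and the part of leukocyte content in the other results was not tested. In striated muscle miR-208a and miR-208b had 0 counts in at least 1 library, and miR-133a-3p lay lower in each cSCC without passing (1073 and 437 CPM, -1.30, adjusted p = 0.0623). In the fit of the 10 tumour libraries miR-133a-3p (-1.24, adjusted p = 0.0164) and miR-133b-3p (-1.24, 0.0435) passed, and miR-133a-3p also did so among mature miRNAs alone (0.0314), at 50 CPM or more (0.0382) and with DESeq2 (0.0317).

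Further rises were smaller. miR-182-5p, of the sensory-organ miR-183 cluster, rose from 528 ± 72.6 to 1033 ± 381 CPM (log2 fold change 0.968 ± 0.259, edgeR, adjusted p = 0.0274) and miR-183-5p from 279 ± 43.9 to 551 ± 240 CPM (0.984 ± 0.287, adjusted p = 0.0429). In both, cSCC 3 was highest (1523 and 922 CPM) and cSCC 6 lay inside the papilloma range (461 and 272 CPM). Without cSCC 3 neither passed, miR-182-5p at 0.869 (adjusted p = 0.066), and miR-183-5p did not pass without cSCC 4 or papilloma 4 either (adjusted p = 0.0545 to 0.113 over these 3). In the fit of the 10 tumour libraries miR-182-5p had an adjusted p of 0.077 and miR-183-5p one of 0.0777. In the imprinted Dlk1-Dio3 locus 3 of 86 tested members rose and 0 fell, a share of 3.49% that is near the 3.22% of all features higher in cSCC. miR-541-5p was one, from 116 ± 17.1 to 259 ± 33.5 CPM (1.16 ± 0.275, adjusted p = 0.0113), with no overlap and each cSCC at 224 CPM or more. miR-494-3p rose by 1.07 ± 0.283 (adjusted p = 0.0265), and its adjusted p was 0.0777 in the fit of the 10 tumour libraries.

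Among miRNAs that general knowledge holds to be lowered in squamous carcinomas, 7 of 20 tested fell and 0 rose. Of all features 1.71% fell. The median log2 fold change of the list was -0.91, against -0.07 over all features. This list too was drawn up with earlier results of these data known, so its count is not independent of them. The 7 were both arms of miR-203, both arms of miR-99a, miR-204-5p, miR-101a-5p and miR-101b-3p. Without 1 library the number was 3 without cSCC 4, 4 without cSCC 3 or papilloma 3, and 5 to 7 otherwise.

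miR-203-3p had 42640, 46090, 34760, 61530 and 47500 CPM in the papillomas and 11790, 20690, 16240, 9572 and 24480 CPM in the cSCCs. Every cSCC lay below every papilloma, and the papillomas stood at the level of healthy skin (45900 CPM) and hyperplastic skin (55270 CPM). The log2 fold change was -1.49 ± 0.284 (edgeR, adjusted p = 0.00257). The miR-203-5p arm fell alike, by 1.5 on the log2 scale (adjusted p = 0.00449), and both calls held in all 10 fits without 1 library. miR-205-5p, the other epithelial miRNA, had 64690 ± 9930 CPM in papilloma and 54070 ± 19100 CPM in cSCC (-0.26 ± 0.239, adjusted p = 0.612). It had 85120 CPM in cSCC 3, the highest of the 10 libraries, and 39560 CPM in cSCC 4, the lowest. Of the keratinocyte list, which holds both arms of miR-203 and of miR-205, 2 of 4 members thus fell. Of all features 1.71% fell. The 2 were the same miR-203 arms as in the list lowered elsewhere. The summed level of the 4 was 85980 to 140100 CPM in papilloma and 49310 to 101600 CPM in cSCC. The miR-200 family was counted as a list of its own, with 0 of 9 tested members past the threshold.

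miR-193b-3p, known to restrain cyclin D1 and the urokinase Plau, had 1649, 2456, 1644, 2141 and 1877 CPM in the papillomas and 595, 619, 910, 674 and 599 CPM in the cSCCs. The groups were far apart, and healthy skin stood higher still at 5200 ± 779 CPM. Its log2 fold change was -1.52 ± 0.267 (edgeR, adjusted p = 0.00125), called in all 10 fits without 1 library. The other arm, miR-193b-5p, did not pass (-0.0862). miR-365-3p, which shares a transcript with miR-193b in one of its copies, had 185 ± 45.9 and 169 ± 58.2 CPM (-0.13, adjusted p = 0.877). Its sign turned without papilloma 3 (0.17), cSCC 1 (0.07) or cSCC 6 (0.10). Of 6 members of the miR-193 and miR-365 list 1 fell (16.7%, against 1.71% of all features).

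The smallest p of the comparison belonged to miR-204-5p, a miRNA encoded within Trpm3. It stood at 177, 269, 85.2, 228 and 218 CPM in the papillomas and at 45.0, 51.8, 45.9, 26.3 and 41.6 CPM in the cSCCs, with every cSCC below every papilloma (log2 fold change -2.21 ± 0.319, edgeR, adjusted p = 0.000318). miR-211-5p, from an intron of the melanocyte gene Trpm1, had 180, 308, 62.1, 245 and 235 CPM and then 63.8, 29.6, 28.4, 20.4 and 46.7 CPM (-2.45 ± 0.614, adjusted p = 0.018). In each library of papilloma the values of both were close. Since they differ by a single base, reads of one may have been counted for the other. Without papilloma 3 or cSCC 4 the call for miR-211-5p ended (-2.09 and -2.2, adjusted p = 0.0603 and 0.0645), while that for miR-204-5p held in all 10 such fits.

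miR-181c-5p and miR-181d-5p, from 1 locus (chr8:86702618-86702845), fell together. miR-181c-5p had 186, 271, 194, 261 and 269 CPM in the papillomas and 93.1, 40.9, 56.99, 76.7 and 112 CPM in the cSCCs. Its log2 fold change was -1.64 ± 0.289 (edgeR, adjusted p = 0.00125), that of miR-181d-5p -1.67 ± 0.334 (adjusted p = 0.00354), and for neither did the groups overlap. The seed relatives from other loci, miR-181a-5p (1691 and 1372 CPM, -0.30, adjusted p = 0.664) and miR-181b-5p (188 and 194 CPM, 0.05, adjusted p = 0.97), did not pass. In the family 2 of 9 tested members fell (22.2%, against 1.71% of all features). Both miR-181a-5p and miR-181b-5p were picked with their values in view.

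miR-99a-3p was lower in cSCC, at 40.9 ± 9.21 CPM against 95.1 ± 24.6 CPM (log2 fold change -1.22 ± 0.277, edgeR, adjusted p = 0.00822), and its call ended without cSCC 4 or papilloma 3 (-1.08 to -0.92, adjusted p = 0.0525 to 0.0643). miR-99a-5p, known to restrain mTOR, had 12170 ± 2440 and 6697 ± 1520 CPM with no overlap (-0.86 ± 0.246, adjusted p = 0.0381). Its call ended without cSCC 1, cSCC 2, cSCC 3, cSCC 4, papilloma 1, papilloma 3 or papilloma 5 (adjusted p = 0.0979 to 0.206). It also ended with no low-count filter (0.0845) and in the fit of the 10 tumour libraries (0.0573). miR-101b-3p, of a family that restrains Ezh2, fell from 532 ± 123 to 255 ± 55.7 CPM (-1.06 ± 0.304, adjusted p = 0.0385), a call that each of the 10 fits without 1 library ended (adjusted p = 0.0555 to 0.161), as did the fit with no low-count filter (0.0758). miR-101a-5p, at 8.30 and 1.96 CPM, fell by 2.08 on the log2 scale (adjusted p = 0.0159), not called without cSCC 3 or cSCC 4 (adjusted p = 0.0533 and 0.079) nor in the fit of the 10 tumour libraries (0.0542).

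3 further falls were weak. miR-497-3p fell by 1.33 on the log2 scale (43.0 to 17.2 CPM, edgeR, adjusted p = 0.037), miR-676-3p by 1.27 (56.3 to 23.4 CPM, 0.0171) and let-7g-3p by 0.94 (34.4 to 17.9 CPM, 0.037). The call for miR-676-3p ended without cSCC 1, cSCC 2, cSCC 4, papilloma 3 or papilloma 5 (adjusted p = 0.0518 to 0.0941). That for miR-497-3p held without papilloma 4 or papilloma 6 and ended without each other library (0.0578 to 0.188) and with no low-count filter (0.0535). That for let-7g-3p ended in each of the 10 fits without 1 library (0.0574 to 0.17), with no low-count filter (0.0837) and in the fit of the 10 tumour libraries (0.103).

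**Figure D4:**
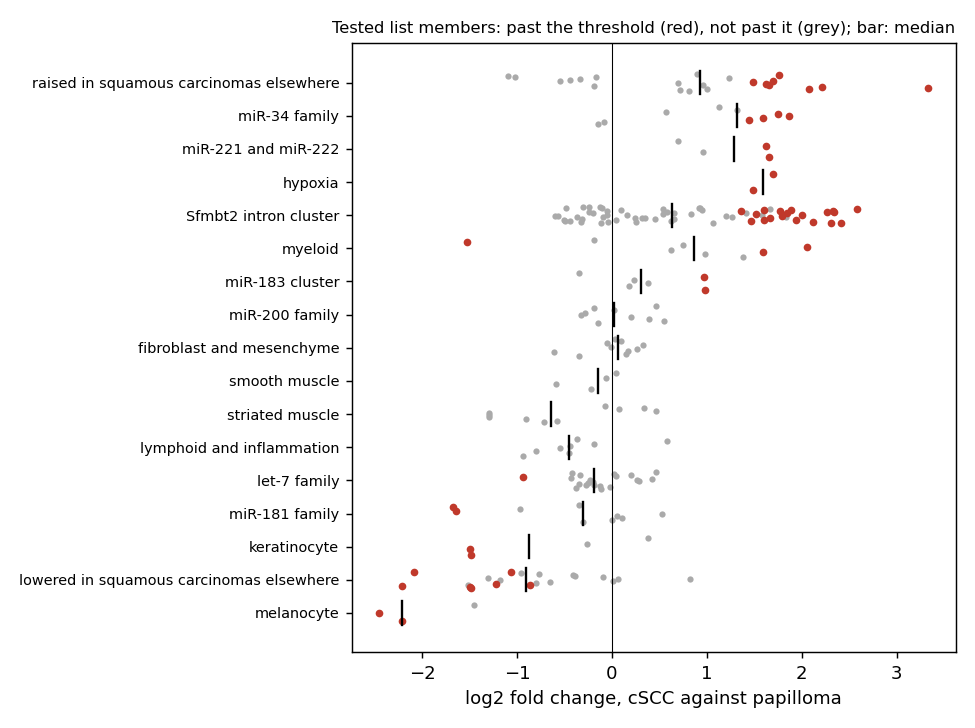
Log2 fold change of cSCC against papilloma (horizontal axis) of each tested member of 17 miRNA lists (rows), in red where past the threshold, with the list median as a bar. Members past the threshold lie only to the right in the Sfmbt2 cluster (19 of 64) and the list raised elsewhere (8 of 22), and only to the left in the list lowered elsewhere (7 of 20). Over all features 3.22% rose and 1.71% fell, and the lists were chosen with earlier results of these data known.

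The lists with 0 of their tested members past the threshold were those of the miR-200 family (9), the miR-17-92 clusters (24), the miR-30 family (11), the miR-23, miR-27 and miR-24 clusters (11), the Hox clusters (11), the miR-29 family (7), the miR-7 family (5) and the H19-Igf2 locus (3), besides the cell type lists given above. In the let-7 family 1 of 21 fell (4.76%), and in the list of miR-15, miR-16 and relatives 1 of 15 rose and 1 fell (6.67% each). That list holds both arms of each miRNA, so not all its members carry one seed. The member that rose was miR-503-5p, whose seed no other tested miRNA with a matched sequence had. The member that fell was miR-497-3p, whose partner arm miR-497-5p did not pass. In the miR-26 and miR-101 list 2 of 9 fell (22.2%), and in the miR-99, miR-100 and miR-125 list 2 of 11 (18.2%). Over all features 3.22% rose and 1.71% fell. With DESeq2 the Hox clusters and the miR-23, miR-27 and miR-24 clusters had 1 fall each and the miR-29 family 2 rises.

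The miR-200 family, which holds the epithelial state by restraining Zeb1 and Zeb2, had 0 of 9 tested members past the threshold, and the members of its chromosome 6 locus spread widely among the cSCCs. miR-200c-3p had 352, 475, 145, 305 and 299 CPM in the papillomas and 299, 384, 491, 30.6 and 51.3 CPM in the cSCCs. miR-141-3p, from the same transcript on chromosome 6, had 1468 to 1926 CPM in the papillomas and 2567, 2722, 2350, 365 and 327 CPM in the cSCCs. For miR-141-3p cSCC 1, cSCC 2 and cSCC 3 thus lay above and cSCC 4 and cSCC 6 below every papilloma, while the group means were alike (1647 and 1666 CPM, log2 fold change 0.02, edgeR, adjusted p = 0.992). Of the other miR-200 locus, on chromosome 4, miR-200b-3p had 498 CPM in cSCC 4 and 180 CPM in cSCC 6, against 124 to 399 CPM in the papillomas. miR-200a-3p had 1714 CPM in cSCC 4, inside the papilloma range of 1607 to 2247 CPM, and 1146 CPM in cSCC 6 and 1295 CPM in cSCC 3, both below it. These values were noticed in the data, the family was named after they were seen, and no test was made of a difference among the cSCCs.

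**Figure D5:**
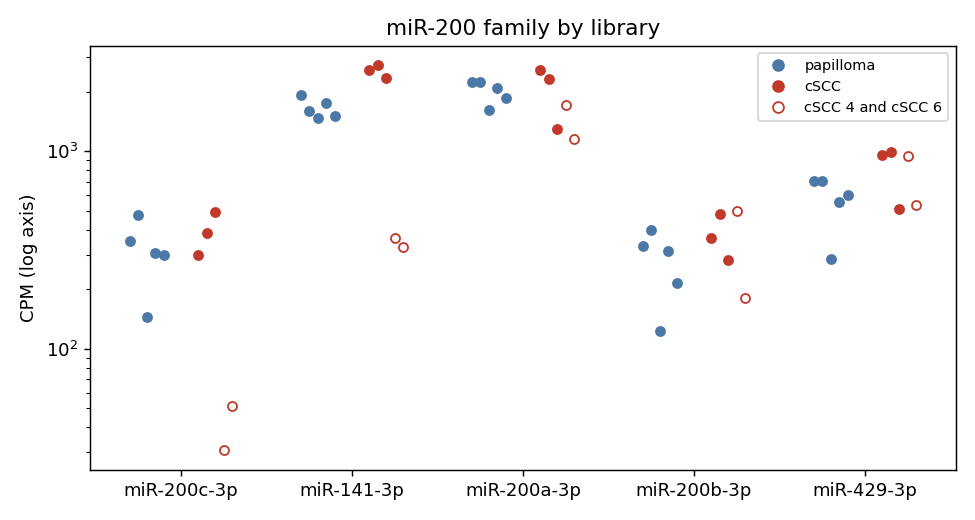
CPM on a log axis of 5 members of the miR-200 family in each papilloma and cSCC library, with cSCC 4 and cSCC 6 as open circles. These libraries lie apart for miR-200c-3p (30.6 and 51.3 CPM) and miR-141-3p (365 and 327 CPM) and among the others for miR-200a-3p, miR-200b-3p and miR-429-3p, except that cSCC 6 is the lowest library for miR-200a-3p at 1146 CPM.

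Outside the miRNAs, 4 mitochondrial tRNAs were lower in cSCC. mt-Tk, the lysine tRNA (chrM:7700-7764), had 189, 438, 180, 135 and 102 CPM in the papillomas and 62.7, 59.3, 75.3, 53.8 and 73.2 CPM in the cSCCs, all below every papilloma. Its log2 fold change of -1.69 ± 0.337 (edgeR, adjusted p = 0.00354) was -1.11 without papilloma 3 (adjusted p = 0.04). The others were mt-Tf for phenylalanine (-1.12, adjusted p = 0.0194), mt-Tg for glycine (-1.17, 0.0264) and mt-Ts2 for serine (-1.27, 0.0379), whose entry overlaps that of mt-Tl2. mt-Tg was not called without cSCC 1, cSCC 2, cSCC 4, cSCC 6, papilloma 1 or papilloma 3 (adjusted p = 0.0604 to 0.202), mt-Tf not without cSCC 1, cSCC 3, cSCC 4, cSCC 6, papilloma 1 or papilloma 3 (adjusted p = 0.0575 to 0.178), and mt-Ts2 not without papilloma 1, papilloma 3 or any 1 cSCC (0.0568 to 0.228). In the fit of the 10 tumour libraries mt-Tf (adjusted p = 0.0777), mt-Tg (0.0858) and mt-Ts2 (0.0784) were not called, nor was mt-Ts2 with no low-count filter (0.0559). The 21 tested mitochondrial tRNAs had a median of -0.74, which was -0.34 without papilloma 1 and -0.35 without papilloma 3. Of these tRNAs 1 passed without papilloma 1, papilloma 3, cSCC 1, cSCC 4 or cSCC 6, and 2 without cSCC 2 or cSCC 3. Their share of all counts was 0.664% ± 0.239 in papilloma and 0.687% ± 0.273 in cSCC.

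Among nuclear tRNA entries, a glycine tRNA copy with the CCC anticodon (chr4:32317224-32317295) fell from 346 ± 210 to 145 ± 62.0 CPM (log2 fold change -1.26 ± 0.359, edgeR, adjusted p = 0.0381), in the entry chr4.tRNA67-GlyCCC. The cysteine entry chr11.tRNA1442-CysGCA fell from 24.3 ± 17.7 to 5.69 ± 2.06 CPM (-2.09 ± 0.467, adjusted p = 0.00769), and to -1.49 without papilloma 1 (adjusted p = 0.0655). The glycine entry was not called without cSCC 1, cSCC 2, cSCC 4, cSCC 6, papilloma 1, papilloma 3 or papilloma 4 (adjusted p = 0.0665 to 0.2), nor with no low-count filter (0.0559) or in the fit of the 10 tumour libraries (0.126). The papillomas with the highest tRNA share, 1 and 3, also had the highest counts of chr4.tRNA67-GlyCCC, 590 and 521 CPM, and the part of that share in the fall was not tested. Of the snoRNA entries FR061012 rose by 1.85 (4.61 to 16.7 CPM, adjusted p = 0.00746) and FR034965 fell by 2.10 on the log2 scale (14.2 to 3.33 CPM, adjusted p = 0.00822), both called in all 10 fits without 1 library. FR061012 overlaps the entry FR137955, another of the 3 snoRNA entries that rose, so they may share reads and are not separate changes. The piRNA entry FR045070 rose by 2.88 (adjusted p = 0.0377) on 29.8 and 17.0 CPM in cSCC 1 and cSCC 4 against 0.42 to 2.25 CPM in the other cSCCs. Its call ended without cSCC 1, cSCC 4, papilloma 1, papilloma 3 or papilloma 5 (adjusted p = 0.0552 to 0.155).

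The share of counts by feature class did not differ between the groups beyond the spread, with 0 of 6 classes past the adjusted threshold (0.0%). Mature and other miRNA entries took 71.2% ± 9.32 of counts in the papillomas and 76.8% ± 2.2 in the cSCCs (5 libraries each, ± SD, exact permutation test, two-sided, p = 0.222, adjusted 0.5). Nuclear tRNA entries took 25.9% ± 9.07 and 20.4% ± 2.13 (exact permutation p = 0.206, adjusted 0.5). rRNA entries took 0.848% ± 0.0489 and 0.743% ± 0.201, and the share of rRNA was 1.09% in cSCC 2 against 0.607% to 0.717% in the other cSCCs. Without cSCC 2 the rRNA share fell by 0.193 percentage points in cSCC (exact permutation, adjusted p = 0.0476).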

How the data were processed

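The deposited table gives raw read counts, in whole numbers, for each small RNA feature in each library. Total RNA came from a Qiagen miRNeasy kit and gel-sized libraries from a NEBNext SOLiD set, per the labels' protocols. The genome build was mm9 per the submitters' processing notes. How reads were aligned, counted and shared among several matches, and which annotation releases were used, is not given in the sources used here. No feature has a total under 21 counts. Of 388 tRNA entries, 127 have a summed count within 1% of another copy with the same anticodon, so reads may have been counted at several copies, and class shares are shares of counts.

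Counts were filtered by group with filterByExpr (10 counts, 15 in total), scaled by TMM factors (0.714 to 1.371) and tested in edgeR 4.0.16 under R 4.3.3 (with limma 3.58.1) by the quasi-likelihood F test, two-sided, in 1 model of all 20 libraries, with Benjamini-Hochberg adjustment over 1522 features. Standard errors (SE) come from the F statistic. Class shares and arm ratios (0.5 counts added, arms at 50 CPM or more) had exact permutation tests. The script was tested on simulated counts. The duplicate check, made on pairs within papilloma and within cSCC only, found no library of these groups deposited more than once. Of 178 Ensembl identifiers 165 were named, and 660 of 864 tested mature miRNAs matched a RefSeq sequence.

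The members, lists and rules were chosen with earlier results of these data known. The 2 carcinoma lists were drawn from general knowledge. Named features were the 12 largest rises and falls at 50 CPM or more in a group, from each list up to 2 other features past the threshold, the 2 smallest p-values of each other class, the 5 most abundant features, and miR-21-5p, both miR-31 arms, miR-135b-5p, miR-203-3p, miR-205-5p, miR-193b-3p and miR-365-3p. Others were named after their values were seen. Alternatives were DESeq2 1.42.0 and its size factors, other filters, mature miRNAs alone, the 10 tumour libraries alone, the replicate number as a block, a log2 threshold of 1 and leaving out each library.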

Additional observations from a re-analysis of the deposited data

Results flagged for a closer look

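In 2 of 120 groups of 5 libraries, 1 library lay far from the rest, beyond Dixon's 95% limit of 0.71 for the gap over the range, taken on log2 CPM for features and on percentages for class shares. Chance flags about 1 in 20 groups. miR-221-3p stood at 208.7 CPM in papilloma 3, with the other papillomas at 537.5 to 689.5 CPM (0.792 on the log2 scale, and 0.684 on unlogged CPM, under the limit). The share of rRNA in cSCC 2 was 1.09%, with the other cSCCs at 0.607% to 0.717% (0.775).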

How the results depend on the processing

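No feature called in the fit of all 20 libraries changed sign in any setting, and 33 of the 75 calls held in all 10 fits without 1 library. Against 49 rises and 26 falls, leaving out 1 library gave 31 to 67 rises and 10 to 56 falls, mature miRNAs alone 58 and 40, DESeq2 78 and 51 (30 features without an adjusted p), and a test against a log2 fold change of 1 gave 1 and 1. DESeq2 size factors gave 57 and 27, no low-count filter 55 and 18, and the 10 tumour libraries alone 34 and 18. The replicate block gave 8 rises and 5 falls, and it kept 6 of the 49 rises and 5 of the 26 falls. Among the calls it ended were miR-222-3p (edgeR, adjusted p = 0.076), miR-34c-5p (0.0714), miR-351-5p (0.0587) and miR-181c-5p (0.063). Whether the numbers shared by papilloma and cSCC (1, 3, 4 and 6) pair the libraries is not known, and so few pairs cannot decide it. Deviations of same-numbered libraries correlated at -0.0675, 0.103, -0.164 and 0.309, against -0.328 to 0.214 for libraries with different numbers. The cause of these shifts was not tested.

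miR-365-3p, not called, turned to 0.173, 0.0733 and 0.103 without papilloma 3, cSCC 1 and cSCC 6 (range without 1 library -0.251 to 0.173). Class shares, none called, turned sign in these settings (percentage points, cSCC minus papilloma): mitochondrial tRNA 0.0235, -0.0234 with each anticodon counted once (added after seeing the data) and -0.0914 to 0.102 without 1 library; piRNA -0.0252, 0.0221 with counts outside mature miRNAs as denominator; snoRNA -0.00988, 0.61 with that denominator and -0.0818 to 0.0594 without 1 library. The rRNA share ranged from -0.193 (without cSCC 2, adjusted p = 0.0476 by exact permutation) to -0.071. Arm ratios had 0 calls in every setting. The median SE was 0.321 for features of at least 50 CPM and 0.466 below, which sets the size of change that could be detected.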
